A study of Mus musculus with 8 samples.

Results

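The 10 genes described here form the core of the mouse circadian clock: Clock, Arntl, Per1, Per2, Per3, Cry1, Cry2, Dbp, Nr1d1 and Nr1d2. They were taken by name from the deposited gene table, where each has 1 row among 13130 genes, and from the transcript table, where they have 19 rows among 24526. The tissue was orbital frontal cortex, a prefrontal region, of C57BL/6 mice at 12 weeks of age. All 8 libraries carried a hairpin: 4 control libraries a scrambled one (sh-scramble), and 4 knockdown libraries hairpins against the Homer1 locus, labelled sh-circHomer1/sh-Homer1b. The labels do not say which of these hairpins a library received, how it was delivered, which cells it reached, whether each library was 1 animal, or at what time of day the tissue was taken. P-values therefore measure the spread between these libraries. The values are FPKM, which scales fragment numbers to transcript length and to the mapped fragments of a library, and a log2 difference is knockdown minus control on the log2(FPKM + 1) scale.

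The clock is a feedback loop that runs in most cells, cortical neurons and glia included. CLOCK and BMAL1, the product of Arntl, bind E-box sequences and switch on the Per and Cry genes, whose proteins return to the nucleus and repress CLOCK and BMAL1. The same activators drive Nr1d1 and Nr1d2, which encode the REV-ERB repressors of Arntl, and Dbp, a transcription factor that binds D-box sequences. Over a day, Arntl RNA in mouse tissues therefore runs roughly opposite to Dbp, Nr1d1 and the Per genes, and the members differ in phase. Per1 and Per2 also respond directly to neuronal activity and to stress hormones.

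Promoter windows from RefSeq (GRCm38.p6), each 250 bases before and 50 bases from the start site on, were found for 9 of the 10 genes, in 13 windows. The 6 shown are those in which a textbook control element of the loop was found, with the matched letters in capitals. The words searched on both strands were the E-box CACGTG, the E-prime box CACGTT, the D-box as TTATGTAA or TTATGCAA, the REV-ERB and ROR site as TAGGTCA or TGGGTCA, and the cAMP response element TGACGTCA. No 2 of the matches shown overlap.
Per1, chr11:69098699-69098998, plus strand: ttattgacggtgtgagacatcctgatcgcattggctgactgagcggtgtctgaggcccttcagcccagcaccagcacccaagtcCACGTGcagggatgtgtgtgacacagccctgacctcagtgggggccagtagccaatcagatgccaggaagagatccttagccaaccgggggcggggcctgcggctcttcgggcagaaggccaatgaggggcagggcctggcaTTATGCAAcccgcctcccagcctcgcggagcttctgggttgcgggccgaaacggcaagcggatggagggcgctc
Cry1, chr10:85185005-85185304, minus strand: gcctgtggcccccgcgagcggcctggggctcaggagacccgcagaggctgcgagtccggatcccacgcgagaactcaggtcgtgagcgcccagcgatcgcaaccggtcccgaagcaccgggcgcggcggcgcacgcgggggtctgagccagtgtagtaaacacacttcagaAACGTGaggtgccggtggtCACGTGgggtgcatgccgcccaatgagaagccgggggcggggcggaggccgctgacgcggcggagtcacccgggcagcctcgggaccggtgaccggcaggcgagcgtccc
Cry2, chr2:92434020-92434319, minus strand: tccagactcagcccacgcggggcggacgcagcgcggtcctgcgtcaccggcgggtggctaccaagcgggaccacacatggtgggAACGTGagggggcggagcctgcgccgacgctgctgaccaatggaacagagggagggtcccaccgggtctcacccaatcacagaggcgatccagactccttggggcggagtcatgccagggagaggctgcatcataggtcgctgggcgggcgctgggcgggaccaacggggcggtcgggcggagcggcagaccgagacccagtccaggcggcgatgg
Nr1d1, chr11:98775328-98775627, minus strand: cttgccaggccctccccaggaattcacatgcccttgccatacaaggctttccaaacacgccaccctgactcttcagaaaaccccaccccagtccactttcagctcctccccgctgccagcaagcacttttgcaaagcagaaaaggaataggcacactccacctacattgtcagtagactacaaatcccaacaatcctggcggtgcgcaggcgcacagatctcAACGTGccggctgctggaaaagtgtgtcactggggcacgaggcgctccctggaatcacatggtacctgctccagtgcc
Per3, chr4:151044616-151044915, minus strand: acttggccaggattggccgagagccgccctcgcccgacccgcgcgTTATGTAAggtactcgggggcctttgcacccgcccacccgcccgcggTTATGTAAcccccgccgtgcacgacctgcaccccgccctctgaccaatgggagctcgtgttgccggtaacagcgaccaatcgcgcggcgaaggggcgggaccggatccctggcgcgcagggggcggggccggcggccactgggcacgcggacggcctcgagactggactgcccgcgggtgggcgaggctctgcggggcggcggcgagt
Arntl, chr7:113207261-113207560, plus strand: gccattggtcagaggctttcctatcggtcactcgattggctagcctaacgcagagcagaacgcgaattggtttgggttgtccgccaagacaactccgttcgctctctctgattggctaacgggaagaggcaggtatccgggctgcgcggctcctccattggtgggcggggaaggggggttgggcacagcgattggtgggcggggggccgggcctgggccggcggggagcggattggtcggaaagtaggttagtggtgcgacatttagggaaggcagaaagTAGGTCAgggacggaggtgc

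The Per1 window holds an E-box whose first base lies 166 bases before the start site and a D-box 24 bases before it. In Cry1 an E-box lies 60 bases and an E-prime box 79 bases before the start. Nr1d1 has an E-prime box 28 bases before its start, and Cry2 has another at 166 bases. The Per3 window holds 2 copies of the same D-box, 205 and 158 bases before its start. In Arntl the REV-ERB and ROR site lies 30 bases after the start. E-boxes were in 2 of the 13 windows against 7.15% of 32851 mouse windows, E-prime boxes in 3 against 4.68%, D-boxes in 2 against 1.66%, REV-ERB and ROR sites in 1 against 6.45%, and the cAMP response element in 0 against 1.79%. A match describes these letters in this window and shows no binding.

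The libraries were alike in bulk: gene FPKM summed to between 214300 and 224300, of which mitochondrially encoded genes took 12.25% to 14.5%. Read depth is unknown. Homer1, the targeted gene, read 23.5, 26.3, 21.3 and 18.9 FPKM in control replicates 1 to 4 and 18.9, 16.5, 16.6 and 19.3 FPKM in knockdown replicates 1 to 4, so the groups overlapped. All 15 listed markers of cortical excitatory neurons were measured, at 364 to 464 FPKM in sum in controls and 378 to 453 FPKM across the knockdown libraries. Of 11 markers of the suprachiasmatic nucleus, the brain's master clock, 6 were measured, at 16.5 to 19.3 FPKM in sum in controls and 18.7 to 25.3 FPKM across the knockdown libraries. Avp, Lhx1, Nms, Prok2 and Six6 of that list had no row among the genes, so they could not be analysed. Striatal projection neuron markers summed to 328 to 1084 FPKM across the controls and 275 to 667 FPKM across the knockdown libraries, and olfactory bulb markers to 180 FPKM in knockdown replicate 4 against 64.4 to 144 FPKM elsewhere. Single olfactory bulb markers set this library apart more than the sum. Calb2 read 33.6 FPKM there against 2.8 to 5.2 FPKM elsewhere, and Cdhr1 9.93 against 0.42 to 1.05 FPKM. Doc2g read 10.4 against 0.56 to 1.12 FPKM, and Th 5.66 against 1.27 to 2.05 FPKM. Astrocyte markers (418 to 467 and 425 to 542 FPKM in sum), microglia markers (179 to 200 and 164 to 214 FPKM) and endothelial and mural markers (179 to 201 and 181 to 221 FPKM) overlapped between controls and knockdown libraries.

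None of the 10 clock genes passed the test between the groups, and their differences were small. At an adjusted p under 0.05 (limma with Benjamini-Hochberg adjustment) 0 of 10 passed, beside 0% of the 13004 genes tested. At an unadjusted p under 0.05 there were also 0 of 10, beside 14.2% of all genes, and the groups failed to overlap in 0 of 10, beside 9.15%. Log2 differences ran from -0.16 for Cry1 to 0.14 for Nr1d1, with 7 genes lower and 3 higher in the knockdown libraries. Their median was -0.06, against 0.01 over all genes tested, of which 45.1% were lower. All 10 passed the filter on low values (mean of at least 0.5 FPKM).

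**Figure D1:**
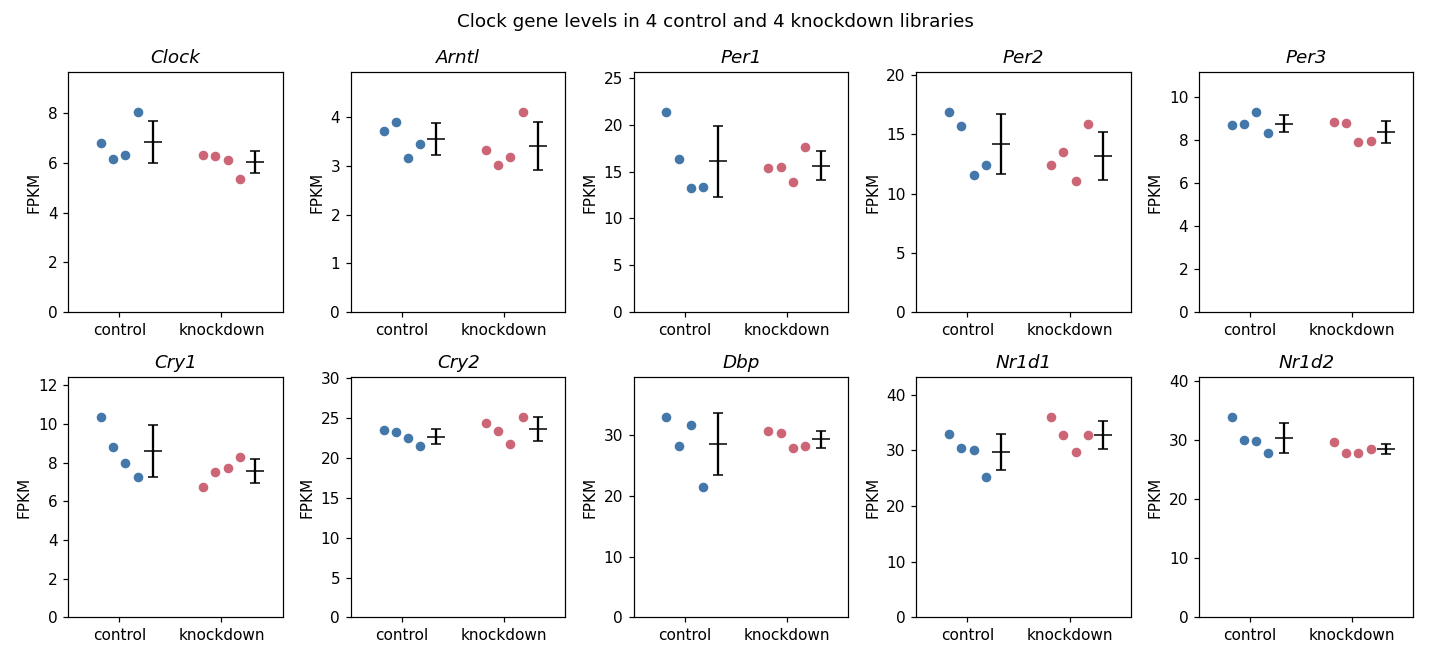
FPKM of each clock gene (vertical axes, from 0) in the 4 control (blue) and 4 knockdown (red) libraries, replicates 1 to 4 from left to right, with the group mean and SD in black. In every panel the ranges of the groups overlap, and the widest control range in FPKM is that of Dbp, from 21.5 to 32.99 FPKM.

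The activators were the lowest of the set. Clock encodes the DNA-binding partner of BMAL1. Its gene value (ENSMUSG00000029238, chromosome 5, 76209868 to 76304792, minus strand) was 6.82, 6.18, 6.34 and 8.06 FPKM across the controls and 6.34, 6.28, 6.13 and 5.37 FPKM across the knockdown libraries. Control replicate 4 was the highest library and knockdown replicate 4 the lowest, and the other 6 lay between 6.13 and 6.82 FPKM. The log2 difference was -0.16 ± 0.08 (SE; adjusted p = 0.428, limma), and -0.084 without control replicate 4. Arntl (ENSMUSG00000055116, chromosome 7, 113207465 to 113314126, plus strand) read 3.73, 3.903, 3.16 and 3.46 FPKM across the controls and 3.34, 3.02, 3.18 and 4.11 FPKM across the knockdown libraries. Knockdown replicate 4 and control replicates 1 and 2 stood highest. Group means were 3.56 ± 0.33 and 3.41 ± 0.49 FPKM (SD, n = 4 each), a log2 difference of -0.05 ± 0.09 (adjusted p = 0.804, limma).

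Among the repressors, the Per genes encode the PERIOD proteins that carry the inhibitory signal back to the nucleus. Per1 (ENSMUSG00000020893, chromosome 11, 69095217 to 69109960, plus strand) read 21.4, 16.4, 13.3 and 13.3 FPKM across the controls and 15.4, 15.5, 13.9 and 17.7 FPKM across the knockdown libraries. Per2 (ENSMUSG00000055866, chromosome 1, 91415982 to 91459324, minus strand) read 16.9, 15.7, 11.6 and 12.5 FPKM across the controls and 12.4, 13.5, 11.1 and 15.9 FPKM across the knockdown libraries. For both genes control replicates 1 and 2 and knockdown replicate 4 were the 3 highest libraries, and control replicate 3, control replicate 4 and knockdown replicates 1, 2 and 3 lay below them. Log2 differences were -0.02 ± 0.14 for Per1 (adjusted p = 0.960, limma) and -0.09 ± 0.14 for Per2 (adjusted p = 0.782, limma). The direction for Per1 turned to 0.12 without control replicate 1 and to 0.03 without knockdown replicate 3. Per3 (ENSMUSG00000028957, chromosome 4, 151003652 to 151044665, minus strand) was the steadiest of the 3, at 8.67, 8.71, 9.30 and 8.33 FPKM against 8.83, 8.77, 7.90 and 7.94 FPKM (log2 difference -0.06 ± 0.06, adjusted p = 0.631, limma).

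The cryptochromes are the partners of the PERIOD proteins and the strongest direct repressors of CLOCK and BMAL1. Cry1 (ENSMUSG00000020038, chromosome 10, 85131700 to 85185064, minus strand) read 10.4, 8.80, 7.96 and 7.27 FPKM across the controls and 6.75, 7.53, 7.71 and 8.31 FPKM across the knockdown libraries. Control replicate 1 was again the highest library, while knockdown replicate 1 was the lowest. The log2 difference was -0.16 ± 0.10 (adjusted p = 0.498, limma), and -0.071 without control replicate 1 or -0.069 with the striatal marker level as a covariate. Cry2 (ENSMUSG00000068742, chromosome 2, 92403646 to 92434043, minus strand) kept within 21.5 to 25.1 FPKM over all 8 libraries. Its means were 22.7 ± 0.91 and 23.7 ± 1.48 FPKM (SD, n = 4 each; log2 difference 0.06 ± 0.06, adjusted p = 0.656, limma).

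The outputs that also feed back were the most abundant. Nr1d1, which encodes REV-ERB alpha (ENSMUSG00000020889, chromosome 11, 98767932 to 98775333, minus strand), read 32.9, 30.4, 30.0 and 25.2 FPKM across the controls and 35.9, 32.7, 29.7 and 32.7 FPKM across the knockdown libraries. Control replicate 4 was lowest and knockdown replicate 1 highest. Its log2 difference of 0.14 ± 0.09 was the largest upward one of the 10 (adjusted p = 0.472, limma). It was 0.070 without control replicate 4, and with the striatal marker level as a covariate it was 0.19, where that of Dbp was 0.20. Nr1d2, which encodes REV-ERB beta (ENSMUSG00000021775, chromosome 14, 18204054 to 18239127, minus strand), read 33.9, 30.0, 29.8 and 27.9 FPKM against 29.7, 27.8, 27.9 and 28.5 FPKM (log2 difference -0.09 ± 0.06, adjusted p = 0.522, limma). Dbp (ENSMUSG00000059824, chromosome 7, 45705088 to 45710203, plus strand) read 32.99, 28.2, 31.7 and 21.5 FPKM across the controls and 30.7, 30.4, 27.9 and 28.3 FPKM across the knockdown libraries. Control replicate 4 was low for Dbp, with the other 7 libraries between 27.9 and 32.99 FPKM. The log2 difference for Dbp was 0.05 ± 0.12 (adjusted p = 0.864, limma), -0.07 without control replicate 4, and 0.20 with the striatal marker level as a covariate. Exons of Nr1d1 overlap those of Thra on the opposite strand over 263 bases, and exons of Dbp those of Sphk2 over 539 bases. The kit was stranded, but the labels do not say that counting used strand, so reads of these pairs may not be separated.

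On the FPKM scale, levels over the 8 libraries fell into 4 bands. Nr1d1, Nr1d2 and Dbp had means of 31.2, 29.4 and 29.0 FPKM with overlapping ranges. Cry2 followed at 23.2 FPKM, and its range overlapped that of Dbp through control replicate 4 alone. Per1 and Per2, at 15.9 and 13.7 FPKM, overlapped each other. Per3, Cry1 and Clock, at 8.56, 8.09 and 6.44 FPKM, also overlapped, and Arntl lay below every other gene in every library, at 3.49 FPKM. The gene value is lower than the sum of the listed transcripts by a factor that differs between genes, from a ratio of 0.38 in Arntl to 1.00 in Per2, so these bands belong to the gene table.

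Spread between libraries was modest. The highest library exceeded the lowest by 1.17-fold in Cry2, 1.18-fold in Per3 and 1.22-fold in Nr1d2, and by 1.61-fold in Per1, the widest. Clock, Cry1, Dbp and Per2 spanned 1.5- to 1.54-fold, Nr1d1 1.43-fold and Arntl 1.36-fold. The SD of log2(FPKM + 1) over the 8 libraries had a median of 0.14 across the 10 genes. It was 0.11 across the 7425 genes whose mean lies between those of Arntl and Nr1d1, and 7 of the 10 clock genes were above that value. Per1 and Per2 varied more than 84.5% and 83.9% of those genes, and Per3 more than 19.7%.

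**Figure D2:**
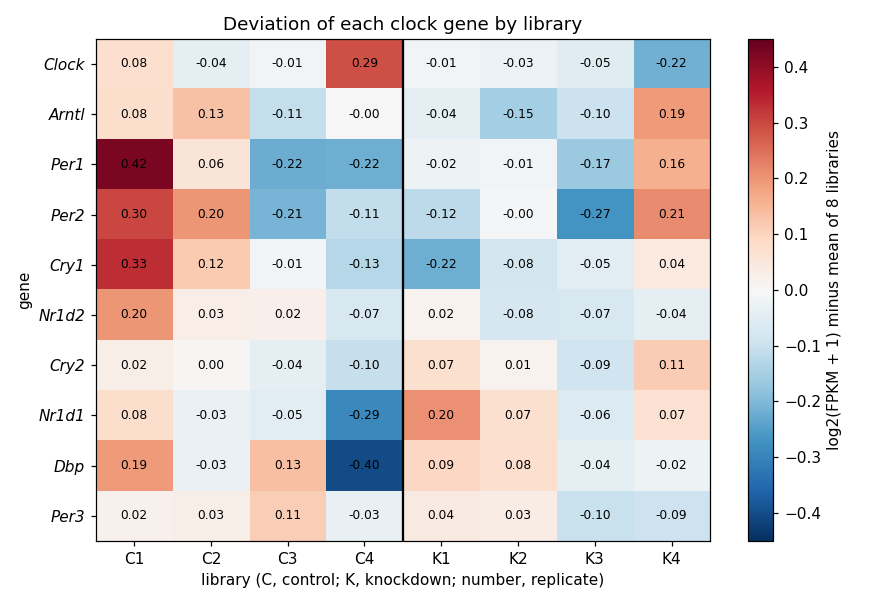
Log2(FPKM + 1) of each clock gene (rows) in each library (columns; C, control; K, knockdown) minus its mean over the 8 libraries, with red above and blue below the mean. Control replicate 1 is above the mean in all 10 genes and knockdown replicate 3 below it in all 10, whereas control replicate 4 combines the highest Clock (0.29) with the lowest Dbp (-0.40) and Nr1d1 (-0.29).

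The average deviations of activators and of their targets had the same sign in 4 libraries and opposite signs in the other 4. The latter were control replicate 4 and knockdown replicates 1, 2 and 4, and in those knockdown libraries an average was near 0. In control replicate 1 all 10 genes were above their mean, in knockdown replicate 3 0 of 10 were, and the other libraries had 1 to 7. Averaged over Per1, Per2, Per3, Cry1, Cry2, Dbp, Nr1d1 and Nr1d2, the deviation was 0.20, 0.05, -0.03 and -0.17 in controls and 0.0081, 0.0026, -0.11 and 0.05 across the knockdown libraries. For Arntl and Clock together it was 0.08, 0.04, -0.06 and 0.14 in controls and -0.03, -0.09, -0.08 and -0.01 across the knockdown libraries. Control replicate 4 was the library in which the sides parted most, the targets below and the activators above their means. That was Clock (0.29), not Arntl (-0.0029). In knockdown replicate 4 the activator average of -0.01 combined Arntl at 0.19 with Clock at -0.22. The opposite signs in knockdown replicates 1, 2 and 4 therefore describe no clear parting of the sides.

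The ratio of Dbp to Arntl, a measure that widens when the sides run opposite, had log2 values of 3.15, 2.85, 3.33 and 2.64 in controls and 3.20, 3.33, 3.13 and 2.78 across the knockdown libraries. Its full range was 0.69, and the groups overlapped. For Nr1d1 over Arntl the range was 0.57 and for Per2 over Arntl 0.38. The ratio of Dbp to Clock spanned 0.98, with control replicate 4 at 1.42 and all others between 2.19 and 2.40.

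Correlations over the 8 libraries were computed for all 45 pairs of clock genes, with exact two-sided permutation tests and Benjamini-Hochberg adjustment over the 45. No pair passed at an adjusted p under 0.05, by Pearson's r or by Spearman's rho, while 8 pairs by r and 2 by rho had an unadjusted p under 0.05. The count by r was 3 without control replicate 2 and 5 without control replicate 1, control replicate 4 or knockdown replicate 3. Of the 45 values of r, 34 were positive and 11 negative. Within the 28 pairs of repressors and outputs, 26 were positive. Clock was negative with 7 of the 9 other genes, but this rests on its extreme libraries: without control replicate 4 and knockdown replicate 4 its r was positive with all 9, from 0.28 to 0.89. Arntl was negative with 3 of 9, namely Clock, Per3 and Dbp, and its r with Dbp was -0.11.

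Per1 and Per2 were the closest pair. Their r was 0.90 (exact permutation p = 0.00144, adjusted p = 0.0647) and rho 0.88 (exact permutation p = 0.00724, adjusted p = 0.241). Without control replicates 1 and 3, the libraries farthest from the median of Per1, r was 0.86, and it was 0.91 with each value centred on its group mean. Without knockdown replicate 3 the pair passed (r = 0.90, exact permutation, adjusted p = 0.0268). Of 13003 other genes, 14 had an r with Per1 at least that high, Per2 included.

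Nr1d1 was close to Cry2 and to Dbp, though Cry2 and Dbp had r = 0.51 (exact permutation p = 0.200, adjusted p = 0.467). Apart from Arntl and Per2, the remaining pairs with an unadjusted p under 0.05 (exact permutation) held Cry1 or Nr1d2. These were Cry1 with Per1 (r = 0.77), Per2 (r = 0.75) and Nr1d2 (r = 0.76), and Per1 with Nr1d2 (r = 0.73). With 1 library left out, r fell as low as 0.40, 0.59, 0.23 and 0.15 in that order. For Cry2 and Nr1d1 r was 0.82 (exact permutation p = 0.00962, adjusted p = 0.214) and rho 0.86 (exact permutation p = 0.0107, adjusted p = 0.241), with r = 0.89 without control replicate 4 and knockdown replicate 4. For Dbp and Nr1d1 r was 0.81 (exact permutation p = 0.0269, adjusted p = 0.214) and rho 0.71 (exact permutation p = 0.0576, adjusted p = 0.470). The latter rests on the extreme libraries, since r fell to 0.32 without control replicates 4 and 1 and was 0.36 without control replicate 4 alone.

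The time of day at which the tissue was taken is unknown, and the part of daily phase in these relations was not tested. The r of Arntl with Dbp, Nr1d1 and the Per genes was mixed. It was 0.61 with Per1, 0.06 with Nr1d1, -0.11 with Dbp and -0.35 with Per3. The highest was that of Arntl and Per2, with r = 0.79 (exact permutation p = 0.0266, adjusted p = 0.214) and rho = 0.67 (exact permutation p = 0.0831, adjusted p = 0.470). For this pair r was 0.66 without knockdown replicate 4 and control replicate 2, and 0.78 with values centred on the group means. Control replicates 1 and 2 and knockdown replicate 4 were the 3 highest libraries for Arntl, Per1 and Per2 alike.

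**Figure D3:**
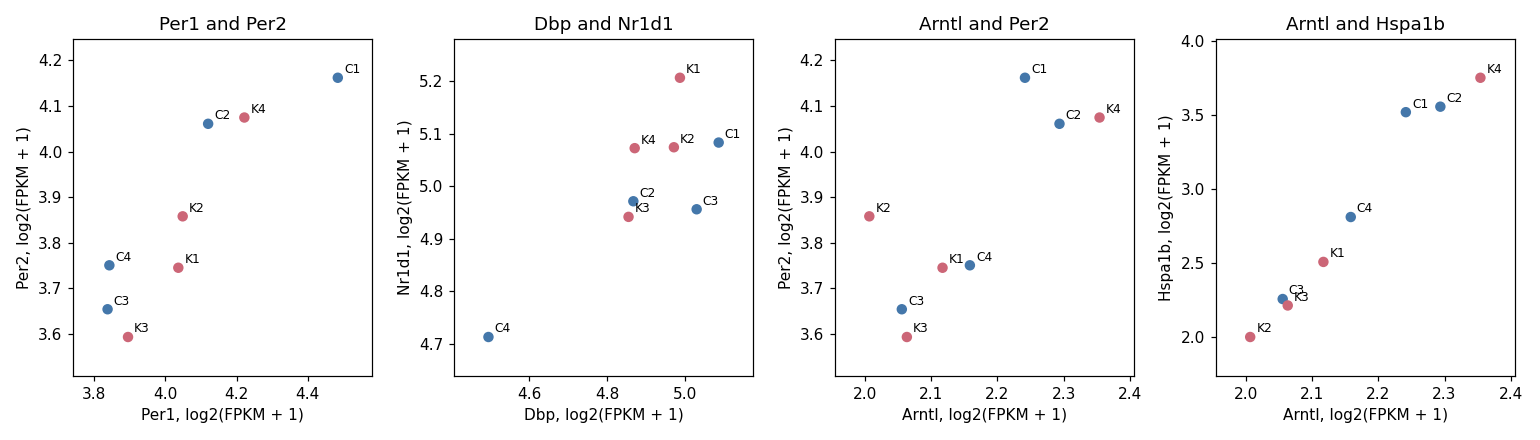
Log2(FPKM + 1) of pairs of genes, 1 point per library (blue, control, C1 to C4; red, knockdown, K1 to K4). Per1 and Per2 rise together (r = 0.90), Dbp and Nr1d1 depend on control replicate 4 at the lower left (r = 0.81, and 0.36 without it), Arntl and Per2 share their 3 highest libraries (r = 0.79), and Arntl and Hspa1b lie close to a line (r = 0.99).

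Outside the clock, the genes most like Arntl over the 8 libraries were Hspa1b (r = 0.99), Hspa1a (r = 0.98), Cacybp (r = 0.98) and Fam107a (r = 0.98), out of 11580 genes ranked. Hspa1a and Hspa1b encode the inducible HSP70 chaperones and are near-identical copies, so their reads cannot be fully separated. Hspa1b read 10.5, 10.8, 3.77 and 6.01 FPKM across the controls and 4.68, 2.995, 3.63 and 12.5 FPKM across the knockdown libraries. Its highest 3 libraries were those of Arntl, but it spanned 4.17-fold where Arntl spanned 1.36-fold. The r of Hspa1b with Arntl stayed at 0.99 without knockdown replicate 4 and control replicate 2, and was 0.99 with values centred on the group means. These are descriptions of genes chosen for their likeness, and they carry no test.

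The list of cold-inducible and heat shock genes holds Hspa1b and Hspa1a, chosen above for their likeness to Arntl, so it is no separate support for that likeness. Its members can also vary together and are not independent. Of its 19 members, 17 had a positive r with Arntl, from 0.16 for Hspa4l to 0.99 for Hspa1b. The median over the list was 0.63. Over all genes the median was -0.0051, with 5th and 95th percentiles of -0.70 and 0.70. The negative ones were Cirbp (-0.54) and Rbm3 (-0.64), the RNA-binding proteins induced by cooling. The median was 0.52 with Per2, 0.48 with Cry1, 0.38 with Per1 and -0.05 with Dbp. Summed, this list read 1046 to 1214 FPKM across the controls and 1063 to 1195 FPKM across the knockdown libraries. Of the 19, 5 were lower and 0 higher at an unadjusted p under 0.05 (limma), beside 14.2% of all genes in either direction, and 0 passed after adjustment. Hspa4l, a cytosolic HSP110 chaperone, read 20.9 against 16.6 FPKM on average (log2 difference -0.31 ± 0.06, adjusted p = 0.266, limma).

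Immediate early genes, which neurons switch on within minutes of firing, varied with several of the clock genes. Of 26 measured members, 23 had a positive r with Per1 (median 0.69), 25 with Per2 (median 0.69), 24 with Arntl (median 0.64) and 22 with Cry1 (median 0.58). The median was 0.41 with Nr1d2, 0.38 with Cry2, 0.11 with Nr1d1, 0.02 with Dbp, -0.08 with Clock and -0.35 with Per3. Over all genes the median r with each clock gene lay between -0.08 and 0.03. Genes of this class can rise together, so the members are not independent. Egr1 (r = 0.94), Fos (r = 0.91) and Fosl2 (r = 0.91), transcription factors of this class chosen after their values were seen, had the highest r with Per2. Summed, the list read 533, 412, 334 and 377 FPKM across the controls and 326, 343, 316 and 466 FPKM across the knockdown libraries, with control replicates 1 and 2 and knockdown replicate 4 again the 3 highest. At an unadjusted p under 0.05, 2 of the 26 members were lower and 0 higher, a smaller share than the 14.2% of all genes. Those 2 were Homer1 (log2 difference -0.31 ± 0.10, adjusted p = 0.273, limma) and Nr4a2 (-0.80 ± 0.29, adjusted p = 0.300, limma). Olfactory bulb markers were also highest in knockdown replicate 4. Their part in these relations was not tested.

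Glucocorticoid response genes, of which Dusp1 is also on the immediate early list, had a median r of 0.08 with Per2 and 0.10 with Per1 over 18 members. Medians with the other clock genes ran from -0.43 (Cry2) and -0.35 (Nr1d1) to 0.31 (Cry1, with 17 of 18 positive). Sgk1, the glucocorticoid-induced kinase, read 27.8 against 18.8 FPKM (log2 difference -0.59 ± 0.22, adjusted p = 0.307, limma) and Klf9 68.9 against 56.7 FPKM (-0.28 ± 0.09, adjusted p = 0.266, limma). Of the 18, 3 were lower and 1 higher at an unadjusted p under 0.05, beside 14.2% of all genes, and 0 passed after adjustment.

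Markers of several cell types had an r of shared sign with some of the clock genes. Markers of the same type can vary together over libraries, so the members of a list are not independent. Over all genes, the 5th and 95th percentiles of r were -0.69 and 0.69 with Cry1 and -0.57 and 0.59 with Dbp. With Cry2 these percentiles were -0.73 and 0.74. All 24 striatal markers had a positive r with Cry1 (median 0.61), Nr1d2 (median 0.56), Dbp (median 0.51) and Per1 (median 0.17). All 18 myelin markers had a negative r with Cry2 (median -0.80), Arntl (median -0.61), Nr1d1 (median -0.45), Per2 (median -0.42) and Per1 (median -0.32), and a positive one with Clock (median 0.45) and Per3 (median 0.22). Of 12 endothelial and mural markers, 12 had a positive r with Per1 (median 0.58) and Nr1d1 (median 0.34), 11 with Per2 (median 0.52), Cry2 (median 0.50), Dbp (median 0.46) and Nr1d2 (median 0.40), and 9 with Arntl (median 0.60) and Cry1 (median 0.54). All 13 astrocyte markers and all 6 tested olfactory bulb markers had a negative r with Clock (medians -0.50 and -0.58). Their medians with Per3 were -0.43 and -0.52. The 6 olfactory bulb markers had a positive r with Cry2, Arntl, Per2, Per1 and Nr1d1 (medians 0.55, 0.51, 0.32, 0.25 and 0.18). Of the astrocyte markers, 12 had a positive r with Cry2 (median 0.49) and 11 with Nr1d1, Per1 and Arntl (medians 0.38, 0.35 and 0.32). For the microglia list the medians lay between -0.43 (Per3) and 0.43 (Arntl), and for cortical excitatory neurons between -0.21 (Dbp) and 0.07 (Cry2). Myelin markers summed to 1131 to 1414 FPKM across the controls and 772 to 1521 FPKM across the knockdown libraries, lowest in knockdown replicates 4 and 1. Cells of a type and RNA per cell cannot be told apart in bulk tissue, and the part of cell composition in the relations among clock genes was not tested. The genes most like Dbp were Arhgap27 (r = 0.97), Ccdc77 (r = 0.94), Rps6ka4 (r = 0.94) and Itpripl2 (r = 0.93). Each was lowest in control replicate 4, and without control replicates 4 and 1 the r was 0.54 for Itpripl2 and 0.93 for Rps6ka4.

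Some isoforms varied far more between libraries than their gene values. Of the 19 transcripts of the clock genes, 18 passed the filter. Dbp-204, a short form, had a mean of 0.50 FPKM, just under it, and was listed at 0 in control replicate 2 and knockdown replicate 3. After adjustment 0 of 18 passed (limma, smallest adjusted p = 0.565), beside 0.0256% of 23415 transcripts tested. At an unadjusted p under 0.05 there was 1 of 18, beside 7.96% of all, and the groups failed to overlap in 1 of 18, beside 5.7%. In both cases it was Clock-201.

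Clock-201 (chromosome 5, 76212177 to 76304548) read 5.37, 4.95, 4.74 and 6.96 FPKM across the controls and 0.10, 0.18, 4.32 and 0.23 FPKM across the knockdown libraries. Knockdown replicate 3 lay just below the lowest control, and the other 3 knockdown libraries were near 0. The log2 difference was -1.92 ± 0.50 (unadjusted p = 0.00545, adjusted p = 0.565, limma), and -2.46 without knockdown replicate 3 (adjusted p = 0.00230, limma). Clock-205 (chromosome 5, 76209868 to 76304792) went the other way in the same libraries, at 3.51, 3.42, 3.18 and 4.51 FPKM across the controls and 6.52, 6.2, 3.20 and 6.94 FPKM across the knockdown libraries (log2 difference 0.49 ± 0.21, adjusted p = 0.629, limma). As a share of the listed Clock transcripts, Clock-201 made up 41.9% to 50% in controls, 39.1% in knockdown replicate 3 and 1.01% to 3.03% in the other knockdown libraries.

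In GENCODE M21 both of these Clock transcripts have 23 exons and the same 855 codons. They share 7297 exon bases and differ in the first exon and in the extent of the last, with 181 bases found in Clock-201 alone and 2447 in Clock-205 alone. Their sum was 8.87, 8.37, 7.91 and 11.5 FPKM across the controls and 6.62, 6.38, 7.52 and 7.17 FPKM across the knockdown libraries. It varied 1.80-fold where Clock-201 varied 67.1-fold. Its means were 9.16 ± 1.59 and 6.92 ± 0.52 FPKM (SD, n = 4 each). The groups did not overlap in this sum, and how often such sums fail to overlap in other genes was not computed. They did overlap in the sum of all listed Clock transcripts, where knockdown replicate 3 lay above control replicate 2. They also overlapped in the gene value of Clock. With all listed Clock transcripts summed, the log2 difference was -0.26 ± 0.12 (adjusted p = 0.442, limma). Clock-204, which starts within the gene and lacks 3 coding bases of Clock-205, read 2.29 to 3.40 FPKM in controls, 3.52 to 4.13 FPKM in knockdown replicates 1 to 3 and 0.48 FPKM in knockdown replicate 4. A transcript value assigned from shared exons can shift between such isoforms without a change in the gene, and the part of assignment in this pattern was not tested.

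Arntl showed a similar exchange that did not follow the groups. Arntl-204 read 3.79 FPKM in control replicate 4 and 3.92 FPKM in knockdown replicate 3, and at most 0.03 FPKM in the other 6 libraries, 2 of them listed at 0. In the same libraries Arntl-201 dropped to 3.30 and 2.85 FPKM, against 6.69 to 8.30 FPKM elsewhere. Arntl-201 and Arntl-204 encode the same 626 codons and share 2816 exon bases, with 92 and 160 bases of their own in the 5-prime part. Their sum kept within 6.70 to 8.32 FPKM in all 8 libraries. Arntl-206, whose coding sequence holds 21 extra bases, read 1.12 to 1.92 FPKM in 7 libraries and 3.30 FPKM in knockdown replicate 4. Over the transcript table, 8.61% of tested transcripts had a highest library of at least 3 FPKM that was 10 times the lowest or more, and so did 2 of the 18 here, Clock-201 and Arntl-204.

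**Figure D4:**
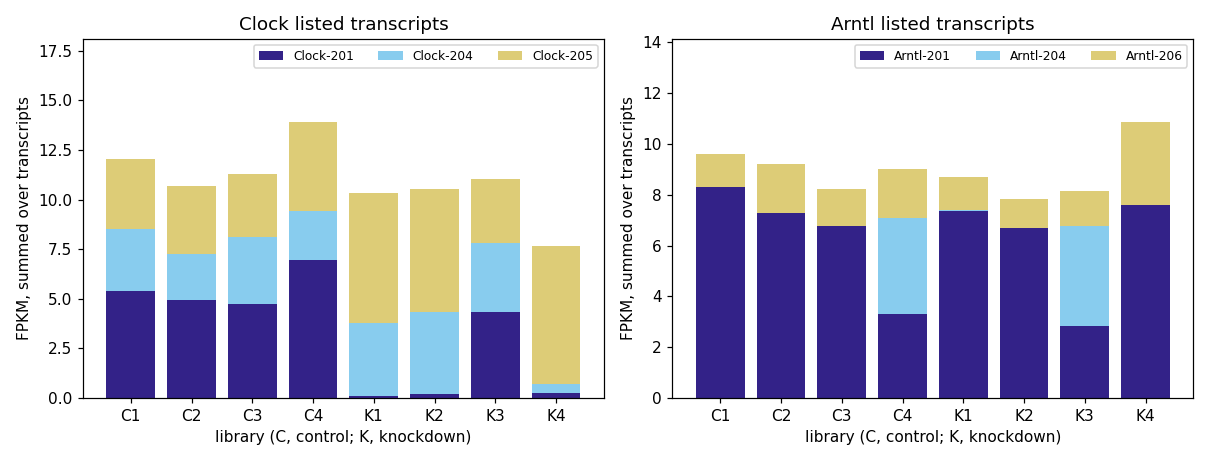
FPKM of the listed transcripts of Clock and Arntl, stacked by library (C1 to C4, control; K1 to K4, knockdown; bars start at 0). Clock-201 is near 0 in K1, K2 and K4, where Clock-205 is 6.2 FPKM or more, and Arntl-204 appears in C4 and K3 at 3.79 and 3.92 FPKM in place of part of Arntl-201.

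Tested isoforms of the other clock genes varied less than Clock-201 and Arntl-204. Per1-201, with 1291 codons, made up 44.5% to 56.7% of the listed Per1 transcripts. It read 9.97 ± 2.33 FPKM across the controls and 10.4 ± 1.13 FPKM across the knockdown libraries (SD, n = 4 each; log2 difference 0.07 ± 0.16, adjusted p = 0.914, limma), against a gene value that was lower by 0.02. Per1-202, which ends early at 827 codons, and Per1-203, with 1271 codons, read 5.90 and 4.92 FPKM on average in controls and 4.73 and 4.83 FPKM across the knockdown libraries. Cry2-202, a minor form, ran from 0.646 to 2.16 FPKM, a 3.35-fold range. Cry2-201 made up 93.8% to 98.4% of the listed Cry2 transcripts, and Dbp-201 88.9% to 93.2% of those of Dbp. Per2-201, Per3-201, Cry1-201, Nr1d1-201 and Nr1d2-201 were each the 1 listed transcript of their gene. Their log2 differences of -0.09, -0.06, -0.16, 0.14 and -0.09 equalled those of the genes to 2 decimals.

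No gene of the wider clock machinery passed the test either. Of 26 further clock genes on the list, 25 were measured and tested, with 12 higher, 13 lower and a median log2 difference of -0.01. After adjustment 0 passed, and 5 had an unadjusted p under 0.05, beside 14.2% of all genes. Usp2, a deubiquitinase with rhythmic expression, was the 1 on the higher side, at 15.8 against 17.9 FPKM (log2 difference 0.17 ± 0.06, adjusted p = 0.293, limma). On the lower side were Gsk3b, a kinase of clock proteins, at 33.1 against 28.6 FPKM (-0.21 ± 0.07, adjusted p = 0.298, limma), and Hlf, which binds D-boxes like Dbp, at 41.5 against 35.4 FPKM (-0.22 ± 0.09, adjusted p = 0.322, limma). Csnk1a1, casein kinase 1 alpha, differed by -0.11 ± 0.04, and Fbxl21, an F-box protein that acts on cryptochromes, by -0.20 ± 0.07. Among the 25, only Gsk3b and Fbxl21 had no overlap between the groups, beside 9.15% of all genes tested.

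Noct, the phosphatase nocturnin, had the largest upward value of the 25 but rested on a few libraries. It read 1.83, 1.23, 1.27 and 1.58 FPKM across the controls and 1.64, 1.74, 5.37 and 3.23 FPKM across the knockdown libraries (log2 difference 0.60 ± 0.27, adjusted p = 0.358, limma). Btrc, Rora and Csnk1e had log2 differences of -0.14, -0.15 and 0.12 with adjusted p from 0.408 to 0.456 (limma). Npas2, the paralog of Clock that can replace it in the forebrain, read 9.18 to 11.3 FPKM across the controls and 9.24 to 10.6 FPKM across the knockdown libraries.

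**Figure D5:**
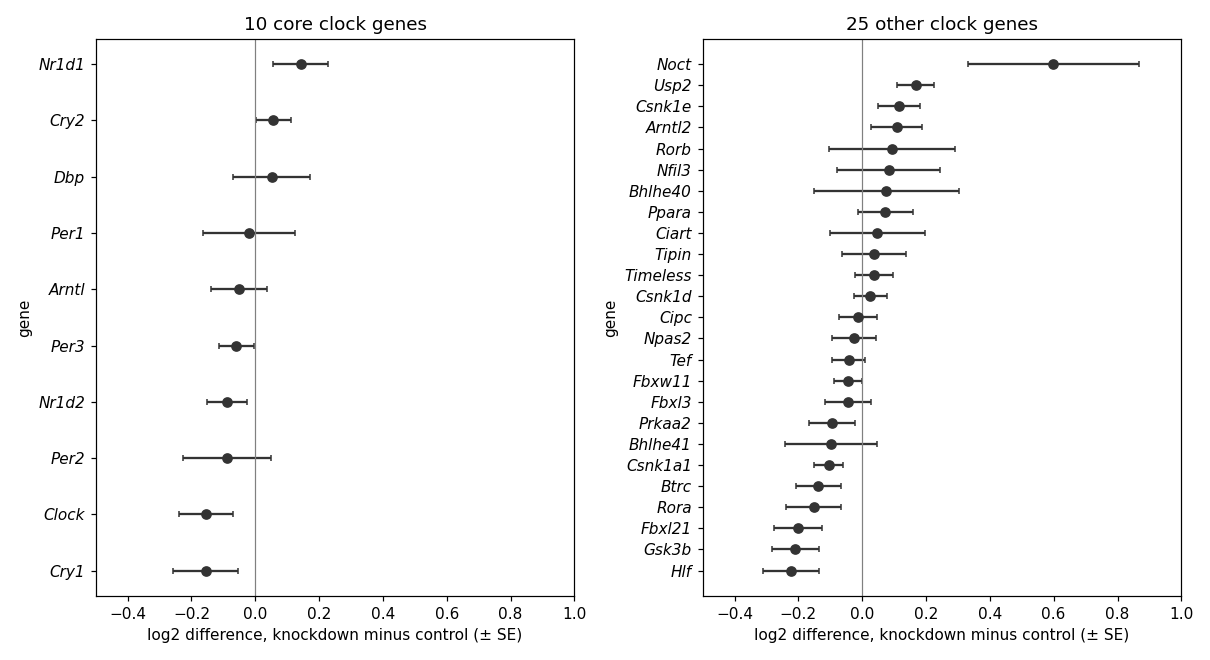
Log2 difference, knockdown minus control, with its SE (horizontal axis) for the 10 core clock genes (left) and 25 other clock genes (right). Core genes lie between -0.16 and 0.14, and among the others only Noct, at 0.60, is above 0.17.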

How the data were processed

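Stranded libraries were made from total RNA of orbital frontal cortex, per the labels' protocols. The authors deposited a gene table and a transcript table in FPKM, per the file headers. The submitters' processing notes list cutadapt, FastQC, StringTie and HISAT2 with neither roles nor versions. The genome build is not given in the sources used here. Coordinates are those of the tables, and the 19 clock transcripts have identical identifiers, versions and coordinates in GENCODE M21 (GRCm38). FPKM carries no counts, so depth is unknown and no counting interval is given.

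Libraries were grouped by title (4 control, 4 knockdown). Values were taken to log2(FPKM + 1), which understates changes of low genes. Rows with a mean of at least 0.5 FPKM, 13004 genes and 23415 transcripts, were fitted with limma 3.58.1 in R 4.3.3 (two-sided, without a block, with the trend and robust options of its empirical Bayes step), with Benjamini-Hochberg adjustment over each whole table and a threshold of 0.05. The fit was tested on simulated data. The 45 correlations used all orderings of the 8 libraries, and smaller p-values than 4.96e-05 are not possible with them. The 10 genes and the lists were chosen with earlier results of these data known. Named genes were the members; per member the top transcript and any with an unadjusted p under 0.05; per list up to 4 genes (other clock genes up to 8) with the smallest p and a mean of at least 1 FPKM, of which the text gives the first 1 or 2 from the heat shock, immediate early and glucocorticoid lists; and the 4 genes most like Dbp and Arntl. From the olfactory bulb list all 4 are given. Clock-204, Arntl-204, Arntl-206, Per1-202, Per1-203, Cry2-202, Dbp-204, Npas2, Fbxl21 and the immediate early genes ranked by r were named after their values were seen. Alternatives covered pseudocount, filter, scaling, plain empirical Bayes, array weights, a block by replicate, a striatal covariate, summed transcripts and each library left out. Correlations between libraries on the log2 scale ran from 0.971 to 0.99, and none were identical.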

Additional observations from a re-analysis of the deposited data

Results flagged for a closer look

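In 5 cases 1 library of a group of 4 lay far from the other 3 by Dixon's gap criterion, out of 58 groups examined over the 10 genes and 19 transcripts. Chance flags about 1 in 20 groups. All 5 were transcripts: Arntl-204 in control replicate 4 (3.79 FPKM) and in knockdown replicate 3 (3.92 FPKM), Arntl-206 in knockdown replicate 4 (3.30 FPKM), Clock-201 in knockdown replicate 3 (4.32 FPKM) and Clock-204 in knockdown replicate 4 (0.478 FPKM). No gene value of the 10 clock genes was set apart in this way.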

How the results depend on the processing

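Of 441 recomputed log2 differences (10 genes and 14 transcripts), 416 kept their direction and their side of the threshold, 24 turned and 1, Clock-201 without knockdown replicate 3 (-2.46), passed. The number of the 10 genes lower in the knockdown group ran from 6 to 8 over all alternatives, which for this count were chosen after seeing the data. Genes past the threshold numbered 0 in every alternative that kept all libraries and 0 to 2 with 1 library left out: 1 without control replicate 1, control replicate 2 or knockdown replicate 3, and 2 without knockdown replicate 4. Transcripts past it numbered 4 to 9 with all libraries (6 as reported) and 9 to 19 with 1 left out, over 1.5 times the reported count for every library but control replicate 3. Correlated pairs numbered 0, and 0 to 1 with 1 library left out. With the striatal covariate Per1 turned to 0.029, Clock-204 to 0.25, Arntl-204 to -0.21 and Arntl-206 to -0.20; with a pseudocount of 0.1 FPKM Arntl-206 turned to -0.0077, and with array weights Clock-204 turned to 0.10, Arntl-204 to -0.0046 and Arntl-206 to -0.10. With 1 library left out, log2 differences ran from -0.10 to 0.12 for Per1, -0.074 to 0.12 for Dbp, -0.27 to 0.33 for Clock-204, -0.31 to 0.20 for Arntl-201, -0.56 to 0.57 for Arntl-204, -0.21 to 0.12 for Arntl-206, -0.042 to 0.19 for Per1-201 and -0.072 to 0.11 for Dbp-201. Differences of the other genes kept their sign but shrank to -0.0042 for Per2 and -0.037 for Nr1d2 without control replicate 1, and to -0.0091 for Arntl without knockdown replicate 2. The causes were not tested. With the replicate block 0 genes and 4 transcripts passed, and none of the 10 clock genes or the 14 of their transcripts refitted changed its call. Deviations from group means over all genes had correlations of -0.18, -0.07, 0.20 and -0.02 between same-numbered libraries, for numbers 1 to 4. The value for number 3 was the highest of any control and knockdown combination. The labels name no pairing, and these values cannot decide whether there was one, because paired libraries need not deviate together. Depth is unknown, which limits what can be said of low values such as Arntl-204 and Dbp-204.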
